A study of Mus musculus with 221 samples.

Results

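The 10 genes described here, Apoe, Ctsd, Cd68, Mmp12, Lgals3, Cst3, Lyz2, Ctss, Tyrobp and Spp1, are lysosomal and macrophage-type genes whose mean level was higher in embryos sired by males on a high-fat diet (HFD) than on a low-fat diet (LFD), with that rise resting on few embryos. They were chosen by name from this very comparison, so every value of their difference between the diets, fitted values included, is a description and supports nothing. All 10 were found among the 55291 genes of the count table. RNA had been profiled in single early 2-cell mouse embryos by Smart-seq2, in which full-length cDNA is made from the poly(A) RNA of a cell or embryo and amplified. Of the embryos, 99 (44.8%) were LFD embryos and the rest were HFD embryos. All embryos came from in vitro fertilization with C57BL/6N sperm, and all carried C57BL/6N nuclear DNA and the mitochondrial DNA of the Staudach line, which the oocytes bring. Only the sire's diet differed by label. The diet groups rest on few males, the labels name no male or fertilization date for an embryo, and sire and diet cannot be told apart.

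Macrophages are phagocytes that digest what they engulf in lysosomes, acidic vesicles filled with proteases, lipases and glycosidases. Cathepsins, lysozyme and the membrane glycoprotein CD68 belong to this compartment, cystatin C restrains cysteine cathepsins outside the cell, and TYROBP passes on signals from activating receptors of myeloid cells. Apolipoprotein E, osteopontin (Spp1), macrophage elastase (Mmp12) and galectin-3 (Lgals3) are made in large amounts by lipid-laden macrophages, although several of them are also made by other cells. The 2-cell embryo still holds much RNA from the oocyte while its own genome starts to be transcribed.

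Total counts ran from 1937251 to 17246791 per embryo, with medians of 5718560 in HFD and 5701720 in LFD embryos. Levels are given as counts per 1000000 of all counts (CPM), and an embryo was called high for a gene when it reached at least 10 CPM and a log2(CPM + 1) at least 3 above the median of all embryos of both diets. By that rule 9 HFD embryos and 0 LFD embryos were high for at least 5 of the 10 genes. HFD-41, HFD-59 and HFD-80, named by diet and embryo number, were high for all 10, HFD-45, HFD-71 and HFD-123 for 9, HFD-44 for 8, HFD-82 for 7 and HFD-24 for 5. The next embryos, HFD-64 and HFD-96, were high for 2. These 9 libraries stood apart in the genes described here, so results are given with and without them. Their totals ran from 2296020 to 13155271 and their genes with a count from 17696 to 21638, against 11415 to 20632 genes in the other HFD embryos and 11364 to 21521 in LFD embryos. In the 9 embryos the summed level of 16 maternal oocyte genes ran from 8033 to 9909 CPM, inside the LFD range of 6540 to 20766 CPM but in all 9 below the medians of LFD embryos (10639 CPM) and of the other HFD embryos (10728 CPM). The summed level of 13 genes of the 2-cell stage ran from 1129 to 2313 CPM, inside the LFD range of 1096 to 3502 CPM, with a median of 1635 CPM against 1694 CPM in LFD and 1794 CPM in the other HFD embryos.

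The RefSeq promoter table (build GRCm38.p6) held 9 of the 10 genes (all but Tyrobp), with 13 start sites. The 250 bases before each start were searched on both strands for 4 short motifs: CACGTG, the core of the element bound by TFEB-type regulators of lysosomal genes, GAGGAAGT, a motif of the PU.1 type used in myeloid cells, TGAGTCA, the AP-1 motif, and TATAAA, the TATA box. Shown are the promoters that hold one of the first 3, with one of the 2 start sites of Mmp12. Capitals mark the motifs, TATAAA included, in either orientation.
Ctsd: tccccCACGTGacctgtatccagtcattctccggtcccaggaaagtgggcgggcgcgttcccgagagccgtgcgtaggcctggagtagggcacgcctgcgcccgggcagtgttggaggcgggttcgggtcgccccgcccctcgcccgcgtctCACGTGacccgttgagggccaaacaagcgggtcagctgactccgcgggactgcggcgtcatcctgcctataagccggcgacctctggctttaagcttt
Cd68: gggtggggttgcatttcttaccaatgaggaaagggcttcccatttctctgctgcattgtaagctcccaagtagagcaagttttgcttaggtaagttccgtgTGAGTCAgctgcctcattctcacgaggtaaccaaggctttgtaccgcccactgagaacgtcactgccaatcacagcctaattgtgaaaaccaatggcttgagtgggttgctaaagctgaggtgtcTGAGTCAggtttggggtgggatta
Mmp12: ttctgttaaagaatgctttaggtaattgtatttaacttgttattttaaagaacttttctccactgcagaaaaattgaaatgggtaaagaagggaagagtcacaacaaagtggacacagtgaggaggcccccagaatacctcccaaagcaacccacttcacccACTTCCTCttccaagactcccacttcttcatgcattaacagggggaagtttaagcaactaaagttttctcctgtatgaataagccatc
Spp1: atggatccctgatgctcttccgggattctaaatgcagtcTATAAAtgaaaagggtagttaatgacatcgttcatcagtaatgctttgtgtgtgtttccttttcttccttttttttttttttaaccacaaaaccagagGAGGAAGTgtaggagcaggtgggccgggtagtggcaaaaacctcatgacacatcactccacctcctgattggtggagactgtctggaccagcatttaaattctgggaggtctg

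The Ctsd stretch (chr7:142387828-142388077, minus strand) held CACGTG at -245 and -98 from the start, a motif found in 6.02% of the 32851 promoters. Cd68 (chr11:69666171-69666420, minus strand) held TGAGTCA at -149 and -24, found in 4.46% of promoters, and the second start site of Mmp12 held it at -44. GAGGAAGT, found in 2.44% of promoters, stood in Mmp12 (chr9:7344147-7344396, plus strand) at -88 on the reverse strand and in Spp1 (chr5:104434861-104435110, plus strand) at -113. TATAAA, found in 12.4%, stood in promoters of Apoe, Ctss and Spp1. No one motif was shared by more than 3 of the 9 genes. Motif matches describe these letters and name no bound factor.

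Baseline levels ran from genes present in nearly every embryo, through Cd68 and Spp1 in between, to genes at or near 0 in most. With detection taken as at least 5 counts, 4 genes were detected in at least 90% of LFD embryos, as were 72.4% of the 14820 genes tested for differential expression. These were Lgals3 in 98, Apoe and Mmp12 in 97 each, and Ctsd in 95 of 99 LFD embryos. Cd68 was detected in 84 and Spp1 in 77. Lyz2 was detected in 43, Cst3 in 41 and Ctss in 39 LFD embryos, and Tyrobp in 0 of 99, which allows a share of up to 3.03%. The HFD embryos other than the 9 gave a similar picture, from all of them for Lgals3 through 60 for Cst3, 46 for Ctss and 45 for Lyz2 to 2 for Tyrobp. As both reads of a pair were counted singly, 5 counts stand for few fragments, and such intervals cover counting error only.

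Per kilobase of exon, so that genes can be set side by side, the LFD median was 11.2 CPM for Lgals3, which stood above 71.7% of the genes tested. Apoe followed at 7.58 CPM per kilobase, above 63.3% of genes, then Ctsd at 3.57, Cd68 at 2.65, Spp1 at 2.48 and Mmp12 at 1.22. Cst3 at 0.423, Lyz2 at 0.368 and Ctss at 0.280 lay above 6.98%, 5.74% and 3.85% of genes, and the Tyrobp median was 0. Only the broad order is firm. The LFD interquartile ranges of Cd68 (1.18 to 4.49 CPM per kilobase) and Spp1 (0.821 to 4.78) overlapped that of Ctsd (2.37 to 4.86), and those of Cst3, Lyz2 and Ctss all began at 0. Lgals3 (7.45 to 15.4) and Apoe (4.24 to 12.03) overlapped each other as well.

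**Figure D1:**
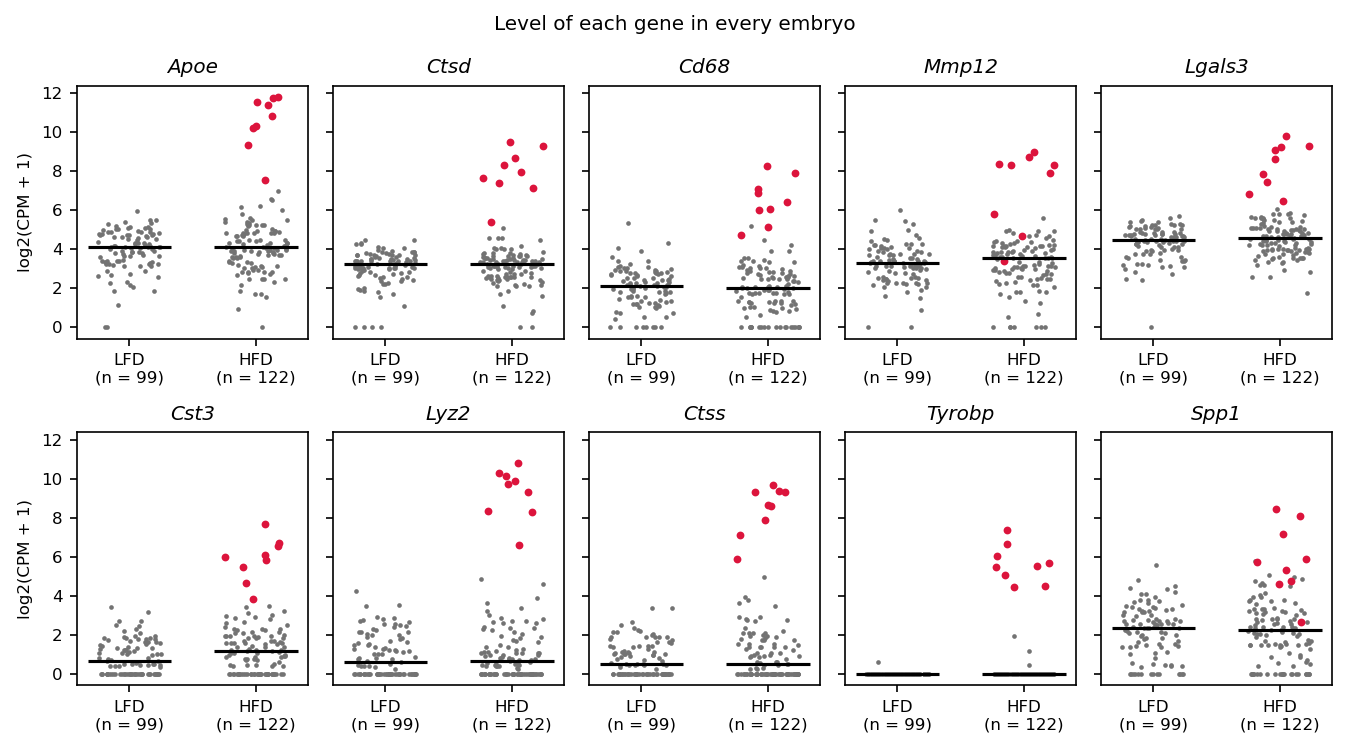
Level of each of the 10 genes as log2(CPM + 1) in every embryo, by diet of the sire. Points are embryos, bars are medians over each diet, and red marks the 9 HFD embryos that were high for at least 5 of the genes. The medians of the diets lie close together, and the red points lie far above them for most genes.

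Among the lysosomal proteases, Ctsd, which encodes the aspartic protease cathepsin D (chr7:142375911-142388038, minus strand), had in LFD embryos a lowest level of 0, a median of 8.39 and a highest of 21.2 CPM. In HFD embryos these values were 0, 8.30 and 721 CPM. The medians were near each other while 13 HFD embryos exceeded the LFD maximum, 9 of them the embryos named above. Ctss, which encodes the cysteine protease cathepsin S of antigen-presenting cells (chr3:95526786-95556403, plus strand), ran from 0 through a median of 0.381 to 9.27 CPM in LFD and from 0 through 0.428 to 816 CPM in HFD embryos. It exceeded the LFD maximum in 14 HFD embryos and was high in 13 HFD and 0 LFD embryos, the most of the 10 genes. Cst3, which encodes the cathepsin inhibitor cystatin C (chr2:148871722-148875692, minus strand), had medians of 0.535 CPM in LFD and 1.22 CPM in HFD embryos and highest values of 9.55 and 200.03 CPM. It is the gene of the 10 whose median differed most between the diets, by 0.53 on the log2(CPM + 1) scale, at a level of few counts, with a median count of 4 in LFD embryos.

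Cd68, whose product is a glycoprotein of the lysosomal membrane used as a macrophage marker (chr11:69664213-69666153, minus strand), had medians of 3.33 CPM in LFD and 3.05 CPM in HFD embryos, with highest values of 38.98 and 305 CPM. The LFD embryo at 38.98 CPM, LFD-44, was itself high, and only 7 HFD embryos exceeded it. Lyz2, which encodes the lysozyme of myeloid cells (chr10:117277331-117282321, minus strand), was at 0 counts in 42 LFD and 45 HFD embryos, with medians of 0.485 and 0.590 CPM and highest values of 17.6 and 1790 CPM. Its closest copy, Lyz1, did not follow it: Lyz1 reached at most 0.672 CPM in the 9 embryos, where Lyz2 was at 93.8 to 1790 CPM. Tyrobp, which encodes the signalling adaptor of myeloid receptors (chr7:30413760-30417585, plus strand), had 2 counts over all 99 LFD embryos together and 3139 over all HFD embryos. It was at 0 counts in 110 HFD embryos and at 20.3 to 162.2 CPM in the 9. Of the 10 genes Tyrobp divided the embryos most sharply, since no other HFD embryo exceeded 2.83 CPM.

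Among the secreted proteins, Apoe, which encodes a lipid-carrying apolipoprotein (chr7:19696109-19699188, minus strand), had medians of 16.2 CPM in LFD and 16.4 CPM in HFD embryos. Its highest values were 60.9 CPM in LFD and 3494 CPM in HFD embryos, and 15 HFD embryos exceeded the LFD maximum. The levels in the 9 embryos ran from 183.6 to 3494 CPM. The groups overlapped for the bulk of embryos and parted at the top. Spp1, which encodes the secreted phosphoprotein osteopontin (chr5:104435118-104441050, plus strand), had medians of 4.08 CPM in LFD and 3.72 CPM in HFD embryos and highest values of 45.7 and 340 CPM. Only 6 HFD embryos exceeded the LFD maximum, 5 of them among the 9, and HFD-71 held 5.33 CPM of Spp1 beside 2979 CPM of Apoe. Mmp12, which encodes the elastin-cutting metalloproteinase (chr9:7344381-7369499, plus strand), had medians of 8.85 CPM in LFD and 10.7 CPM in HFD embryos and highest values of 61.96 and 496 CPM. It was high in 6 of the 9 embryos and was 9.58 CPM in HFD-24, close to the median. Lgals3, which encodes the galactoside-binding lectin galectin-3 (chr14:47367751-47386160, plus strand), had medians of 20.9 CPM in LFD and 23.04 CPM in HFD embryos and highest values of 50.5 and 900 CPM, with 15 HFD embryos above the LFD maximum.

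At least 6 HFD embryos exceeded the LFD maximum for each of the 10 genes, as for 5.10% of all 14820 genes tested, and 0 LFD embryos exceeded the HFD maximum for any of them. At least 6 LFD embryos exceeded the HFD maximum for 1.37% of genes. Each of the 10 genes was high in at least 6 HFD embryos, as were 0.385% of the genes tested, which hold 7 of the 10. Of the genes tested, 0.135% were high in at least 6 LFD embryos. These shares are given as background and nothing is read from them, since the genes were chosen from this contrast. In all, 86 of the gene and embryo combinations were high in HFD embryos, 77 of them in the 9 embryos, and 3 in LFD embryos. The 3 LFD cases each concerned a different embryo and gene: Spp1 at 45.7 CPM in LFD-26, Cd68 at 38.98 CPM in LFD-44 and Lyz2 at 17.6 CPM in LFD-73. Outside the 9, 7 HFD embryos were high for 1 or 2 genes. HFD-64 was high for Cd68 at 35.8 CPM and Spp1 at 53.7 CPM with 0 counts of Lyz2, Ctss and Tyrobp, and HFD-96 for Lyz2 at 27.4 CPM and Ctss at 29.4 CPM, with Apoe at 126.5 CPM.

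**Figure D2:**
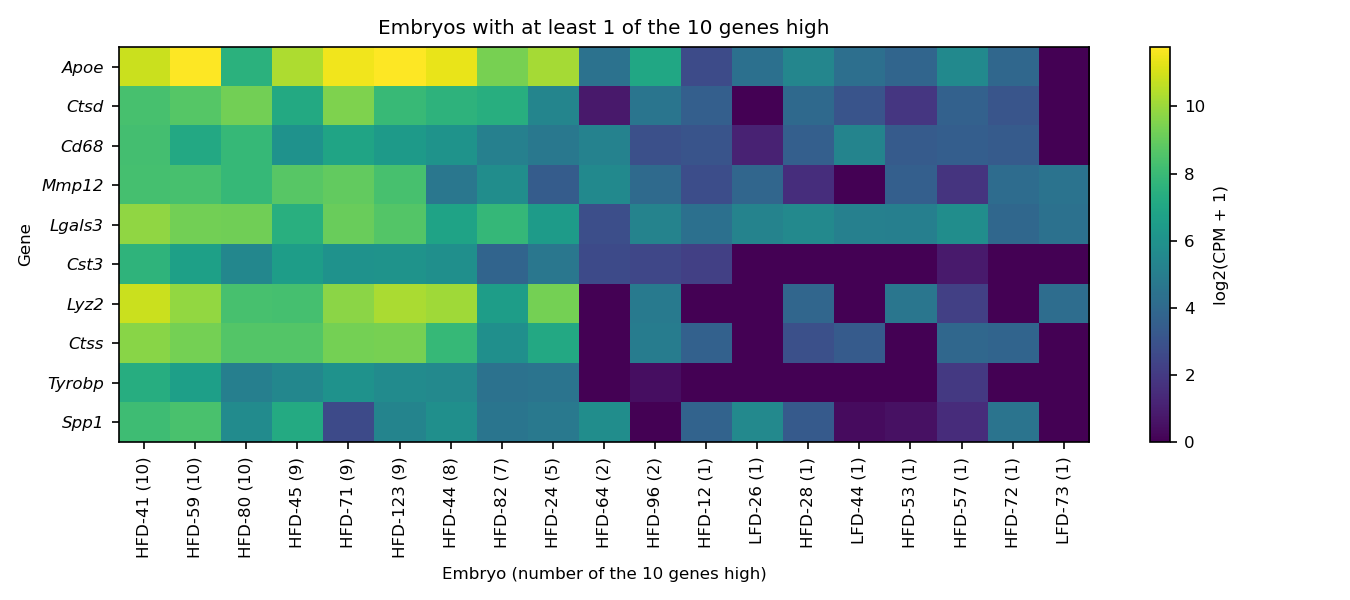
Levels of the 10 genes (rows, log2(CPM + 1) as colour) in the 19 embryos with at least 1 gene high (columns, with the number of genes high in brackets). The 9 embryos at the left were high for 5 to 10 genes at once, and the other 10 for 1 or 2.

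Being high coincided across genes. Every embryo high for Tyrobp was also high for Lyz2 and for Ctss, 9 of 9, which was 69.2% of the 13 embryos high for Lyz2 and 69.2% of the 13 high for Ctss. Lyz2 and Ctss were high together in 10 embryos, 76.9% of each. The smallest overlap was that of Lgals3 and Spp1, with 3 embryos, 50% of those high for Lgals3 and 42.9% of those high for Spp1. The 10 genes together took 0.133% to 0.707% of all counts in the 9 embryos, a median of 0.00716% in the other HFD embryos and at most 0.0123% in LFD embryos.

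The mixture differed between these embryos. The ratio of Apoe to Ctsd was 28.8 in HFD-24, 13.8 in HFD-123 and 0.299 in HFD-80, where Ctsd was at 614 CPM and Apoe at 183.6 CPM. HFD-80 thus held the second highest Ctsd and the lowest Apoe of the 9. Over the 9 embryos the highest level was 63.7 times the lowest for Spp1 and 51.8 times for Mmp12, and 7.98 times for Tyrobp, the narrowest range. HFD-41 was highest of all for Cd68, Lgals3, Cst3, Lyz2, Ctss and Tyrobp, HFD-59 for Apoe and Spp1, and HFD-71 for Ctsd and Mmp12.

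How far the mean of a diet rested on these embryos was seen from the log2 ratio of mean CPM, HFD over LFD. For Apoe it was 3.19 over all embryos, 0.77 without the highest 5% of embryos of each diet and 0.26 without the highest 10%. For Lyz2 the same values were 5.21, 2.17 and 0.37, and for Ctsd 1.87, 0.31 and 0.05. The ratio shrank for each of the 9 genes other than Tyrobp. It stayed highest for Cst3 and Ctss, at 0.95 and 0.74 without the highest 10%. For Tyrobp, whose LFD mean rests on 2 counts, no ratio is given, and mean levels were 4.45 CPM over all HFD embryos, 0.0390 CPM without the 9 and 0.00490 CPM in LFD embryos. The 9 embryos held from 56.9% of the summed HFD CPM of Lgals3 to 97.2% for Lyz2 and 99.2% for Tyrobp. With the HFD mean taken without them, the log2 ratio of the genes other than Tyrobp was between -0.09 for Cd68 and 0.61 for Ctss, with Cst3 at 0.54. No single embryo carried the ratios. Leaving out each embryo in turn kept them between 2.93 and 3.23 for Apoe and between 0.91 and 1.34 for Spp1, with HFD-41 moving 5 of these 9 genes the most.

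**Figure D3:**
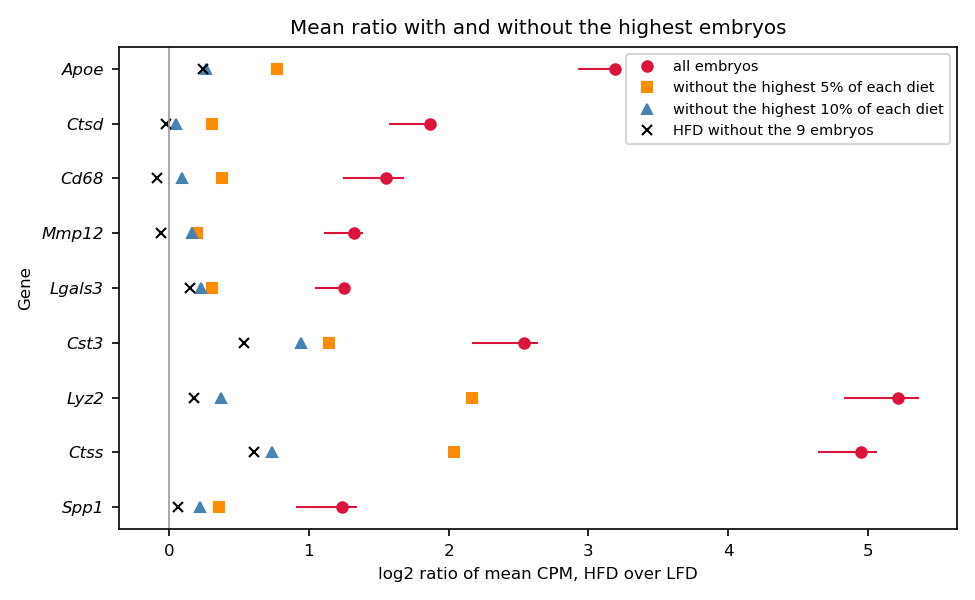
Log2 ratio of mean CPM, HFD over LFD, for 9 of the 10 genes. Circles are all embryos with the range from leaving out each embryo in turn as a line, squares and triangles leave out the highest 5% and 10% of embryos of each diet, and crosses leave out the 9 HFD embryos. Circles lie between 1.24 for Spp1 and 5.21 for Lyz2, and crosses between -0.09 and 0.61.

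In a quasi-likelihood test with edgeR over all genes, 1.26% of 14820 genes passed a false discovery rate of 0.05 with a higher level in HFD embryos. Of the 10 genes, 7 passed the filter on low counts and all 7 were called higher. Lyz2, Ctss and Tyrobp did not pass the filter, and Cst3 passed it only with the 9 embryos. The genes were chosen from this contrast and the 9 embryos by their levels of these genes, so the calls with and without the 9 follow from those choices and nothing is read from them. Fitted log2 fold changes, with standard errors, ran from 1.24 ± 0.31 for Spp1 through 1.27 ± 0.19 for Lgals3 and 1.87 ± 0.25 for Ctsd to 3.23 ± 0.34 for Apoe. Without the 9 embryos 0 of the 6 genes still tested were called, against 0.716% of all genes called higher, and their fold changes lay between -0.065 ± 0.24 for Cd68 and 0.26 ± 0.16 for Apoe. At an unadjusted p under 0.05, 0 of the 6 passed, against 1727 of all 14663 genes tested without the 9 embryos. With limma-voom on all embryos 0 of the 7 were called, against 330 genes in all, and Cd68 was at -0.042. The size depended on the tool, with Apoe at 1.40 in DESeq2 and 0.65 in limma-voom. Of the 318 genes called in either direction over all embryos, 67.6% were also called without the 9.

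Away from the 9 embryos most pairs of the genes varied together only weakly. Over all HFD embryos correlations would rest on the 9 embryos. Correlations of log2(CPM + 1) were therefore taken over the 99 LFD embryos and over the other HFD embryos. They are a description, with all pairs sharing libraries and depth. Over the 45 pairs of genes the median Pearson r was 0.05 in LFD embryos (Spearman rho 0.06) and 0.12 in the other HFD embryos (rho 0.11). In LFD embryos 5 pairs had r over 0.2 and 5 under -0.2, and in the other HFD embryos 11 and 3. Cst3, Lyz2 and Ctss had median counts of 4, 2 and 2 in LFD embryos, and Tyrobp 2 counts over all of them together. Counting error at such levels pulls r toward 0, so a low r does not show that these genes vary apart. The pair with the highest r in both was Apoe and Lgals3, with r = 0.43 and rho = 0.36 in LFD and r = 0.47 and rho = 0.54 in HFD embryos. Without the 2 embryos farthest from the Apoe median r was 0.33 and 0.59. Mmp12 went the other way, with r = -0.41 against Lgals3 and -0.38 against Apoe in LFD embryos, and -0.48 and -0.26 in the other HFD embryos. Yet among embryos with high levels Mmp12 was high together with Lgals3 in 5. These were 83.3% of the 6 high for Mmp12 and 83.3% of the 6 high for Lgals3.

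**Figure D4:**
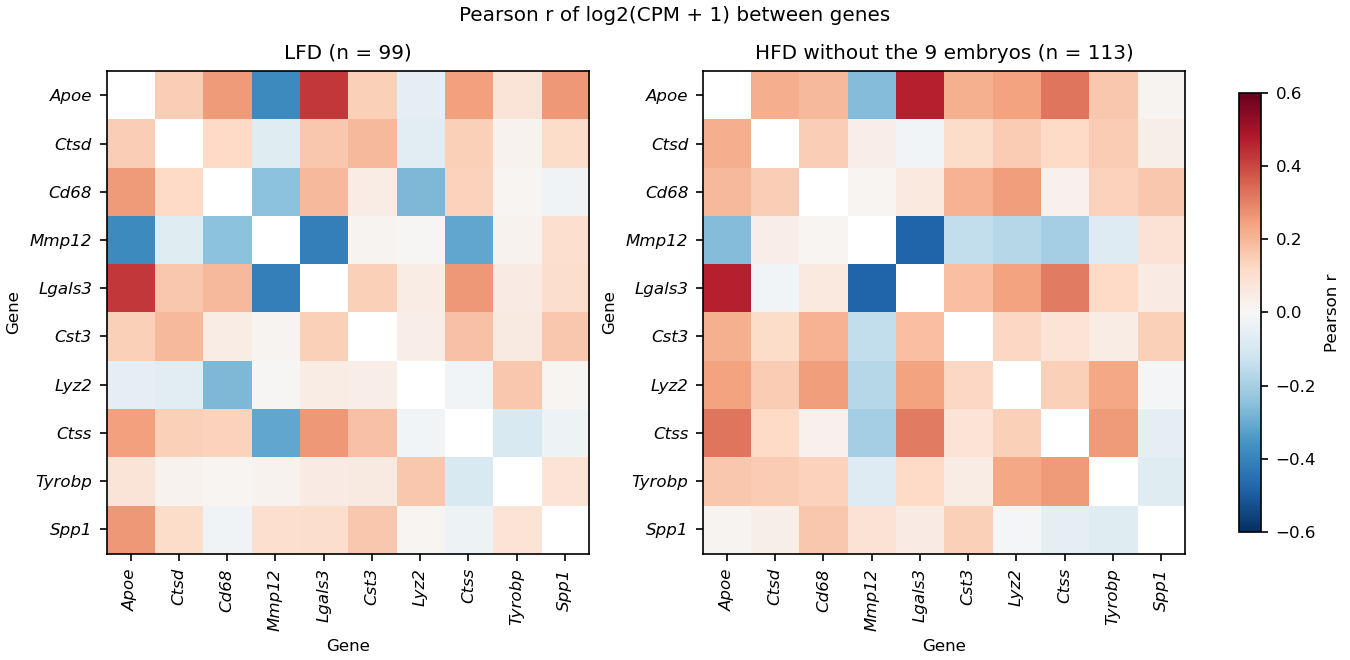
Pearson r of log2(CPM + 1) between the 10 genes over 99 LFD embryos (left) and over the HFD embryos without the 9 (right), with red for positive and blue for negative values. Apoe and Lgals3 are the most positive pair in both panels at 0.43 and 0.47, and Mmp12 and Lgals3 the most negative at -0.41 and -0.48.

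Lgals3 and Mmp12 also ran in opposite ways with the mean log2 level of the maternal genes. Against that level Lgals3 had r = -0.44 (rho = -0.50) in LFD and r = -0.37 (rho = -0.43) in the other HFD embryos. Mmp12 had r = 0.40 (rho = 0.33) and r = 0.35 (rho = 0.44). This was not particular to the maternal genes. Against the mean log2 level of the 2-cell genes, rho was -0.44 and -0.35 for Lgals3 and 0.35 and 0.29 for Mmp12. Against the 2-cell level less the maternal level, rho was -0.058 and 0.0047 for Lgals3 and 0.12 and 0.0051 for Mmp12. Both genes are among the 4 detected in nearly every embryo. Ctsd moved with the number of genes detected, with r = 0.40 in LFD embryos (rho = 0.19), which fell to 0.20 without the 2 embryos farthest from the median of that number. In the other HFD embryos Ctsd had r = 0.47 (rho = 0.28), and 0.27 without the 2 farthest. Cst3 had r = 0.31 (rho = 0.34) in LFD and 0.10 (rho = 0.15) in the other HFD embryos. Apoe had r = 0.35 (rho = 0.12) and 0.17 (rho = -0.04).

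Other macrophage-type genes were compared through a list of 24. Of these, 9 passed the filter and 0 were called in either direction by edgeR (5 at an unadjusted p under 0.05, and 1 called by DESeq2), with a median log2 fold change of 0.24 against 0.01 over all genes tested. Of all 14820 genes tested, 1938 had an unadjusted p under 0.05 in edgeR, and DESeq2 called 463 genes. In the 9 embryos, 14 of the 24 were high in at least 3, as were 0.354% of the 45512 genes with a count. Of the 24, 1 was high in any other HFD embryo and 1 in any LFD embryo. The 9 embryos were chosen by their levels of the macrophage-type genes described here, and the list was chosen with earlier results known. These counts and the share therefore only describe the 9 embryos, and nothing is read from them. The summed level of the list ran from 306 to 1137 CPM in the 9 embryos, from 113.5 to 505 CPM in the other HFD embryos and from 80.1 to 452 CPM in LFD embryos. The genes named next were picked after their values were seen. Fcer1g, the receptor chain that like TYROBP carries activating signals, was at 13.2 to 87.4 CPM in the 9 embryos and at most 1.93 CPM in LFD embryos. Trem2, a receptor that signals through TYROBP, was at 2.77 to 38.4 CPM in the 9 and at most 0.590 CPM in LFD embryos. C1qc, a chain of complement C1q, was at 7.19 to 116.4 CPM in the 9 and had 0 counts in every LFD embryo. Adgre1, which encodes the F4/80 antigen, was at 3.596 to 48.9 CPM in the 9 and at most 3.49 CPM in LFD embryos. For these 4 genes each of the 9 embryos lay above every LFD embryo. The list as a whole was less even, with HFD-82 high for 1 of the 24, HFD-80 for 5 and HFD-59 for 15. The summed levels of HFD-82 (306 CPM) and HFD-24 (365 CPM) lay inside the LFD range.

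Some genes on the list were embryo transcripts in their own right. The 2 with the highest LFD median were Fcgr3, an immunoglobulin receptor, at 125.6 CPM, and Lcp1, an actin-bundling protein of blood cells, at 28.7 CPM, each detected in 99 of 99 LFD embryos. Neither was high in any of the 9. Csf1r, the receptor for the macrophage growth factor CSF1, had an LFD median of 20.9 CPM and a log2 fold change of 0.14 (edgeR adjusted p = 0.584). In the 9 embryos Csf1r ran from 21.9 through a median of 40.2 to 110.2 CPM, above the LFD maximum of 39.2 CPM in 5 of them. Of the defining markers, Itgam stayed at or under 1.97 CPM and Cx3cr1 at or under 3.93 CPM in the 9 embryos. What part other cells had in the levels of the 10 genes was not tested.

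**Figure D5:**
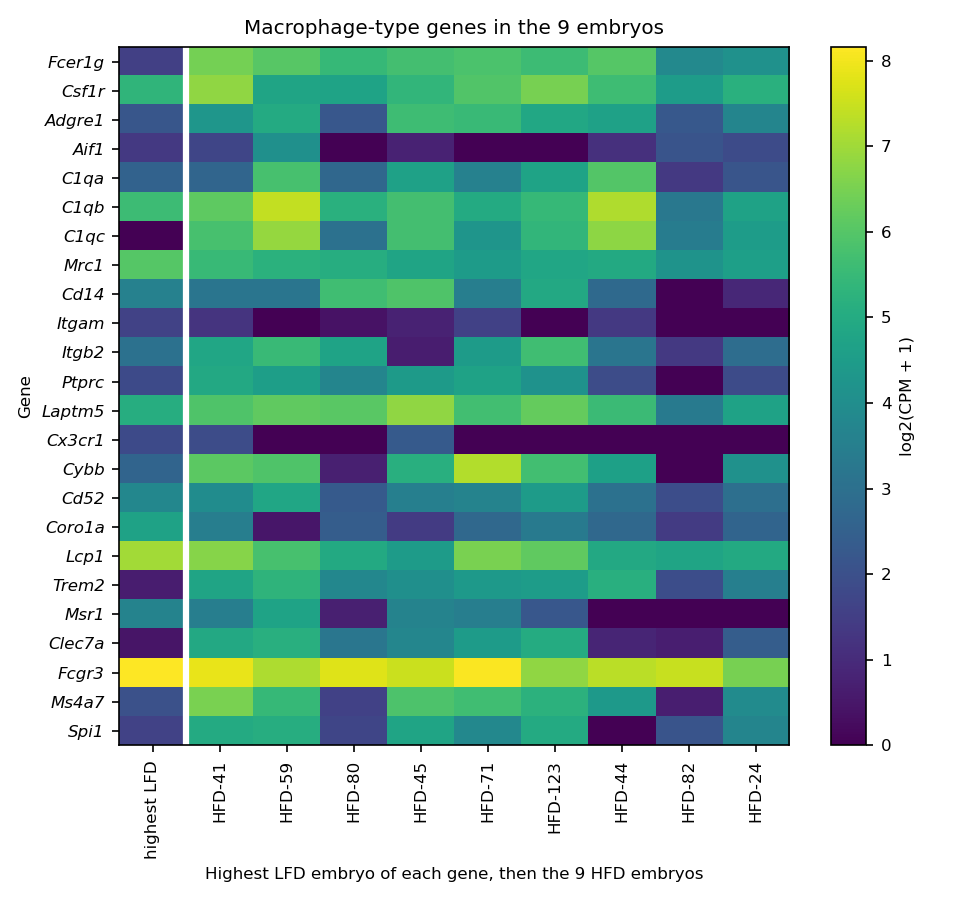
Levels of the 24 macrophage-type genes (rows, log2(CPM + 1) as colour) in the 9 HFD embryos, with the highest LFD embryo of each gene in the first column. Fcer1g, Trem2, C1qc and Adgre1 are above the first column in all 9 embryos, and Fcgr3 and Lcp1 are below it in all 9.

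Of 48 lysosomal genes outside the 10, 43 were tested with edgeR, 5 rose and 1 fell in HFD embryos, where 1.26% of all genes tested rose and 0.891% fell. DESeq2 called 5 higher and 1 lower, limma-voom 2 higher and 1 lower, and limma-voom with ranges of embryo numbers as a random effect 0 higher and 1 lower. Over all genes these fits called 463, 330 and 86 in either direction. Hexa, a subunit of hexosaminidase A, rose by 1.44 ± 0.33 (log2, SE, edgeR adjusted p = 0.00381). Psap, the precursor of the saposins that assist lipid breakdown, rose by 1.07 ± 0.23 (adjusted p = 0.00122), Grn, the progranulin gene, by 1.02 ± 0.23 (adjusted p = 0.00385) and Ctsb, a cysteine cathepsin, by 0.68 ± 0.17 (adjusted p = 0.00941). Lgmn, an asparaginyl endopeptidase, was also called, at 0.43 ± 0.09. Without the 9 embryos 0 of the list were called higher, and Psap stood at -0.04, Ctsb at -0.02 and Lgmn at 0.27 (adjusted p = 0.0926). Atp6v0c, a subunit of the proton pump that acidifies lysosomes, fell by 0.25 on the log2 scale with all embryos (adjusted p = 0.00141) and by 0.28 without the 9 (adjusted p = 0.000219). The median log2 fold change of the tested list was 0.08. The highest LFD medians on the list were those of the cathepsins Ctsl at 337 CPM and Ctsc at 160 CPM, at log2 fold changes of 0.10 (adjusted p = 0.632) and 0.03 (adjusted p = 0.973).

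Among 15 genes of lipid handling and foam cells, 9 were tested and 2 rose with edgeR, against 1.26% of all genes tested: Gpnmb, a glycoprotein of lipid-laden macrophages, by 1.02 ± 0.18 (edgeR adjusted p = 2.77e-05), and Plin2, a coat protein of lipid droplets, by 0.54 ± 0.14 (adjusted p = 0.0206). DESeq2 called 2 of the list, and limma-voom with and without number ranges called 0. Without the 9 embryos these were 0.07 (adjusted p = 0.880) and 0.22 (adjusted p = 0.548). Apoc1, Apoc2 and Apoc4, the neighbours of Apoe in its gene cluster, stayed at or under 0.896 CPM in the 9 embryos. Of 16 extracellular proteases and inhibitors, 5 were tested and 0 were called by edgeR (0 at an unadjusted p under 0.05, and 0 called by DESeq2). Of all 14820 genes tested, 1938 had such a p, and DESeq2 called 463 genes. Yet 2 of the 16 were high in at least 3 of the 9 embryos, as were 0.354% of the 45512 genes with a count. These 2 had not passed the filter on low counts. As the 9 embryos were chosen by their levels of the genes described here, nothing is read from this share. In all, 5 of the 16 were high in at least 1 of the 9, 3 in at least 1 other HFD embryo and 1 in at least 1 LFD embryo.

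Genes of other cell types were counted in the 9 embryos in the same way. Of 11 neutrophil, 10 lymphocyte, 7 erythroid, 9 fibroblast and stromal, 9 oviduct epithelial, 9 sperm and testis and 8 epididymal genes, 0 were high in at least 3 of the 9. Of 20 cumulus and granulosa genes 0 were high in at least 3, 5 were high in at least 1 of the 9, 7 in at least 1 other HFD embryo and 5 in at least 1 LFD embryo. The summed level of the cumulus and granulosa list ran from 100.5 to 334 CPM in the 9 embryos, from 14.9 to 395 CPM in the other HFD embryos and from 29.7 to 235 CPM in LFD embryos. The 5 that were high among the 9 embryos were all high in HFD-41, the embryo highest for 6 of the 10 genes, whose sum was 334 CPM, and HFD-59 at 260 CPM also lay above the LFD range. Cyp11a1, an enzyme of steroid synthesis, was at 144.3 CPM in HFD-41, at up to 140.4 CPM in the other HFD embryos and at up to 19.4 CPM in LFD embryos. In HFD-41 the neutrophil gene Mpo (10.3 CPM) and the stromal gene Sparc (26.4 CPM) were high as well. The part of such cells in the levels of the 10 genes in HFD-41 was not tested. Among these lists 0 of the 20 genes tested were called by edgeR (1 at an unadjusted p under 0.05, and 0 called by DESeq2). The neutrophil list, which was at 0.308 to 27.9 CPM in sum in the 9 embryos and at 0 to 23.4 CPM in LFD embryos, had 3 genes with 0 counts in all 9, and the lymphocyte list had 5. Of the 16 maternal genes, all tested, 1 fell in HFD embryos, the oocyte gene Tle6, by 0.23 on the log2 scale (edgeR adjusted p = 0.0444, and 0.0683 without the 9 embryos). Of the genes of the 2-cell stage 12 were tested and 0 called (4 at an unadjusted p under 0.05, and 1 called by DESeq2). Beside all these lists, 1938 of the 14820 genes tested had an unadjusted p under 0.05 in edgeR, and DESeq2 called 463 genes.

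Over all 45512 genes with a count, 54 (0.119%) were high in at least 6 of the 9 embryos. They included 9 of the 10 genes, all but Spp1, with 8 genes of the macrophage list, 4 of the lysosome list, 2 of the lipid list and 31 on no list. Of the 54, 33 had an LFD median of 0 and 41 were high in no embryo outside the 9. Since these embryos were chosen by their levels of the 10 genes, the place of the 10 genes among the 54 follows from that choice. Nothing is read from it, and the counts of the other genes only describe these embryos.

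The genes most like the 10 were sought by Pearson r with the mean log2(CPM + 1) of the 10 over all HFD embryos, a measure that the 9 embryos carry. Fth1, the ferritin heavy chain, came first (r = 0.86, and 0.52 without the 9 embryos), before Pltp, a phospholipid transfer protein (0.78 and 0.32), B2m, the light chain of class I histocompatibility antigens (0.76 and 0.21), Creg1 (0.76 and -0.0024), H2-D1, a class I heavy chain (0.74 and 0.45), Ftl1, Gm10252, Tmem140, Hexa and Pld3. Creg1, which encodes a lysosomal glycoprotein, was high in 9 of the 9 embryos and in no other HFD embryo. Over LFD embryos the 5 most alike were Gpi1 (r = 0.62), Ckb (0.62), Tuba1a (0.60), Snai1 (0.57) and Rbm14 (0.57), and 0 of the 5 were high in any HFD embryo. Over the HFD embryos other than the 9, r was 0.10 for Gpi1, 0.46 for Ckb, 0.58 for Tuba1a, 0.25 for Snai1 and 0.29 for Rbm14. No gene was in both lists, which says little of the diets, since the 9 embryos carry the HFD list.

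In the annotation, Mmp12 overlapped Mmp1b on the opposite strand, and Smart-seq2 does not mark strand, so reads of such pairs cannot be told apart. Mmp1b reached at most 3.75 CPM. Gm49369 over Ctsd, Hmgb1-ps5 over Ctss and Gm42793 over Spp1, all on the same strand, reached at most 0, 1.69 and 1.20 CPM.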

How the data were processed

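Of 221 embryos, 122 were HFD (113 without the 9 that stood apart) and 99 LFD, grouped by the diet in the titles. The deposited table holds raw counts for each gene. The authors trimmed reads with Trim Galore 0.6.6 and aligned them with STAR 2.7.10a to GRCm38. Per the file headers, featureCounts 2.0.3 counted reads over Ensembl 102 exons with strand setting 2, each read of a pair by itself. Smart-seq2 does not mark strand, so this setting can leave reads of one orientation uncounted, which lowers counts and detection at 5 counts; how many was not measured. Copies of a molecule made by PCR were not told apart, so intervals cover counting error only.

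Counts were tested with edgeR 4.0.16 (TMM, filterByExpr, quasi-likelihood, Benjamini-Hochberg adjustment, FDR 0.05) in R 4.3.3. DESeq2 1.42.0, limma-voom (limma 3.58.1), no filter, embryo-number ranges of 10, a replicate block, a covariate of 6 Y-linked genes and nuclear genes alone were alternatives. The edgeR and limma-voom fits were checked on simulated data. Embryos were treated as replicates, so p-values take no account of sire. The 50 most similar pairs of libraries were compared by chi-square and none was merged, the lowest value being 18.8 per gene. Genes were named by rule: the 10 genes, up to 4 called and the 2 highest genes of a list, and the 10 (HFD) and 5 (LFD) genes most correlated with the 10. Other list genes (Fcer1g, Trem2, C1qc, Adgre1, Csf1r, Itgam, Cx3cr1, Lgmn, Atp6v0c, Apoc1, Apoc2, Apoc4, Cyp11a1, Mpo and Sparc) were chosen after their values were seen. The 10 genes, the lists and the rules were chosen with earlier results of these data known.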

Additional observations from a re-analysis of the deposited data

How the results depend on the processing

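The 9 embryos high for at least 5 genes were the same 9 with a threshold of 2 log2 units, without the CPM floor, with nuclear counts and with counts thinned to 1937251, and 8 of them were found at 4 log2 units. Of the 7 tested genes, DESeq2 called 6 (not Spp1), and the Y-linked covariate and nuclear genes alone 7. Over all genes these fits called 463, 271 and 287. Without a low-count filter all 10 were called, as were 7030 of the 45512 genes with a count. Limma-voom called 0, limma-voom with number ranges 0, and edgeR without the 9 embryos, an alternative chosen after seeing the data, 0. Over all genes these called 330, 86 and 229. Embryo numbers are shared by 94 pairs, whose deviations correlated from -0.36 to 0.33, with a median of 0.01 and 20 of them over 0.1. The labels give no date or sire, so whether such embryos share more than a number was not tested. With the replicate block limma-voom called 5 of the genes and 796 genes in all, and without it on the same embryos 1 and 809. Calls over all genes were 318, against 7030 without the filter and 86 with number ranges. The 7 list genes called higher outside the 10 became 36 without the filter, 2 with limma-voom, 0 with number ranges, 4 with the replicate block, 1 without it on the same embryos and 0 without the 9 embryos. Cd68 was at -0.042 ± 0.31 with limma-voom, -0.041 ± 0.36 with number ranges and -0.065 ± 0.24 without the 9 embryos. Mmp12 was at -0.015 ± 0.18 without them. Each of these lay within its standard error of 0, so the rise was lost and no fall is read from the signs. The cause was not tested. Leaving out each embryo in turn gave log2 ratios of mean CPM from 0.91 (Spp1, lowest) to 5.36 (Lyz2, highest). The 4 genes detected in at least 90% of LFD embryos became 5 at 1 count and 3 with thinned counts. At this depth, Cst3, Lyz2 and Ctss lie near the detection minimum in most embryos.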
